A study of Mus musculus with 2 samples.

Results

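Cell-surface receptors that signal through G proteins (GPCRs) were examined in converted mouse epiblast stem cells (cEpiSC) and in the ground-state embryonic stem cells (mESC) from which such cells are made. The genes were taken by symbol: adhesion receptors (Adgr), numbered Gpr genes, receptors for sphingosine-1-phosphate (S1pr), lysophosphatidate (Lpar) and nucleotides (P2ry), and chemokine receptors (Cxcr, Ccr). This gave 120 of 18032 listed genes, namely 26 adhesion, 65 numbered Gpr, 5 S1P, 6 LPA, 7 P2Y and 11 chemokine receptor genes. The label of the set holds with 1 limit: 8 of the numbered Gpr genes (Gpr89, Gpr107, Gpr108, Gpr137, Gpr137b, Gpr137c, Gpr155 and Gpr180) encode multi-pass proteins known mainly from the Golgi, lysosomes or other internal membranes, and are described apart.

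The cEpiSC library came from wild-type cells converted in culture. mESC in 2iLIF had been seeded on a fibronectin coat and moved after 24 h to N2B27 containing activin A (20 ng/ml) and FGF2 (12 ng/ml), where they stayed for 2 days. The mESC library came from wild-type ES-E14TG2a cells, an established line of mouse embryonic stem cells, in 2iLIF. This is N2B27 with LIF (100 units/ml), 1 µM of the ERK pathway inhibitor PD0325901 and 3 µM of the GSK3 inhibitor CHIR99021. Each state has 1 library, of 19956733 estimated counts in cEpiSC and 19843719 in mESC, so differences are described by size, without p-values, and none could be checked against replicates. State and medium cannot be told apart. The 5 markers of the primed or formative state summed to 1322 CPM (the count scaled to the size of the library) in cEpiSC and 192 CPM in mESC, and the 5 naive markers to 822 CPM and 2619 CPM. Of 6 blood and immune markers, 2 (Ptprc and Csf1r) had 0 counts in both libraries, and the list summed to 21.4 CPM in cEpiSC and 16.6 CPM in mESC. Itgam, an integrin gene of myeloid cells in that list, stood at 10.7 CPM in cEpiSC and 0.517 CPM in mESC, while the macrophage gene Cd68 stood at 9.72 and 15.8 CPM. The 3 endothelial markers found summed to 30.1 CPM in cEpiSC and 63.9 CPM in mESC, with Cdh5 at 1 and 2 counts, Vwf at 194 and 879, and Tek, which lay within 2-fold, at 421 and 355. The 2 neural markers summed to 7.48 CPM in cEpiSC and 3.57 CPM in mESC and the 4 fibroblast markers to 7.23 and 3.77 CPM. Of the trophoblast markers, Gata3 had 60 counts in cEpiSC and 18 in mESC, Elf5 had 1 and 3, and Cdx2 had 0 and 5. The 5 endoderm markers summed to 13.7 CPM in cEpiSC and 15.5 CPM in mESC, and the 4 mesoderm markers to 14.3 and 16.9 CPM. The part of other cell types in the results below was not tested.

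GPCRs relay signals from lipids, peptides, nucleotides and matrix to trimeric G proteins, which set cAMP, calcium and the small GTPases of the cytoskeleton. S1P and LPA are lysophospholipids that act on closely related receptors. The LPA receptors fall into an older Edg family (Lpar1 to Lpar3), which resembles the S1P receptors, and a P2Y-like family (Lpar4 to Lpar6). Adhesion GPCRs carry long extracellular regions that bind matrix or neighbouring cells, and most are cleaved near the membrane. Chemokine receptors guide migrating cells, above all leukocytes and germ cells.

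Promoter windows of 4 lysophospholipid receptor genes are shown because the set holds receptors of both directions and windows that differ in CpG content, the base pair context of DNA methylation. S1pr2 and Lpar6 were higher in cEpiSC, and Lpar1 and Lpar5 lower. Each window runs from 250 bases before to 50 after a RefSeq start in GRCm38.p6, the most upstream of those in the RefSeq promoter table (3 for Lpar1, 2 for Lpar5). The full RefSeq spans of Lpar1 and Lpar5 begin further upstream than these starts. Capitals mark CpG dinucleotides. S1pr2 lies at chr9:20976744-20977043 (minus strand, 18 CpG), Lpar6 at chr14:73237641-73237940 (plus strand, 1 CpG), Lpar1 at chr4:58553442-58553741 (minus strand, 14 CpG) and Lpar5 at chr6:125067670-125067969 (plus strand, 7 CpG).
S1pr2: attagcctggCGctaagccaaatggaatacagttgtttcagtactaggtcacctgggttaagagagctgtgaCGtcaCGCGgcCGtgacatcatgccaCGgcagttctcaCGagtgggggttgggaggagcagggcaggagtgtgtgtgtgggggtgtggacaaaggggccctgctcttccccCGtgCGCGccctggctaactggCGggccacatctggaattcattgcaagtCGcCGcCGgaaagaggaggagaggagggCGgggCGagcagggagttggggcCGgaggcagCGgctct
Lpar6: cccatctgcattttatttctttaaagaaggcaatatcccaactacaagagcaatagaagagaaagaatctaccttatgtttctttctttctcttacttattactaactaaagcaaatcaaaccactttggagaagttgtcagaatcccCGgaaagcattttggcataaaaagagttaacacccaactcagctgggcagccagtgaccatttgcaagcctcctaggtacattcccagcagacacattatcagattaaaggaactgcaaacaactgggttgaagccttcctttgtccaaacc
Lpar1: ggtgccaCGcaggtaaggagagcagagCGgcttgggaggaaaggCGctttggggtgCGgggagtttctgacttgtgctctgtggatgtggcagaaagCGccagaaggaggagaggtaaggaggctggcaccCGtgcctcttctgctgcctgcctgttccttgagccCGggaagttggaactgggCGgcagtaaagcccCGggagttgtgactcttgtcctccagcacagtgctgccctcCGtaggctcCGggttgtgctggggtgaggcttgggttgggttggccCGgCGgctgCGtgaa
Lpar5: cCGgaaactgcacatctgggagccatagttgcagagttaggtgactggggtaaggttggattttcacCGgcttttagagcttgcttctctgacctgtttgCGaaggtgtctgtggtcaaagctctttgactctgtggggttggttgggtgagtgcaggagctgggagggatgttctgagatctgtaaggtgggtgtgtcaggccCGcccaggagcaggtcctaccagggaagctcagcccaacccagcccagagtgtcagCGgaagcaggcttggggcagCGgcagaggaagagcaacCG

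Of the 120 genes, 91 had at least 1 count in cEpiSC and 76 in mESC, and 27 had none in either. Over all 18032 listed genes these numbers were 16374, 15666 and 1178. In bulk RNA, fewer cells of a type and less RNA per cell cannot be told apart. Of the 120, 54 reached 1 CPM in at least 1 library: 36 in both, 11 in cEpiSC alone and 7 in mESC alone. Over all genes 13243 did so: 11933 in both, 932 in cEpiSC alone and 378 in mESC alone. A gene that reached 1 CPM in a single library tends by that choice to differ, so the counts that follow describe the genes measured and support nothing about the families. At a 2-fold difference, 13 of the 54 were higher in cEpiSC (24.1%), against a background of 13.6% of all 13243 genes at 1 CPM or more. Another 12 were lower (22.2%), against a background of 9.25%, and 29 lay within 2-fold. The median log2 ratio of cEpiSC over mESC was 0.26 for the 54 genes and -0.02 for all 13243. By class the median was 0.40 for 14 adhesion, -0.18 for 24 numbered Gpr, -0.70 for 4 S1P, 0.51 for 5 LPA, 1.77 for 3 P2Y and 0.53 for 4 chemokine receptor genes. On TPM values with 1 added, 12 of the 25 differences fell short of 2-fold, all in weakly expressed genes: Adgrb1, Adgrb3, Adgrd1, Adgrg5, Adgrg6, Cxcr4, Gpr37l1, Gpr85, Gpr143, Gpr146, Lpar4 and P2ry1.

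The set is weakly expressed, and the share of genes past 2-fold depends on abundance. Among genes with a mean under 10 CPM, 9 of 33 receptor genes were higher, beside 33.1% of all such genes, and 7 of 33 (21.2%) were lower, beside 14%. At a mean of 10 CPM or more, 4 of 21 receptor genes (19.0%) were higher, beside 5.51%, and 5 of 21 (23.8%) were lower, beside 7.29%. The 4 higher ones were S1pr2, Adgrb2, Adgrl2 and Lpar6, and the 5 lower ones Lpar1, Adgrg1, Lpar5, Gpr161 and S1pr1. Under 10 CPM the median log2 ratio was 0.36 for receptor genes and 0.36 for all genes. At 10 CPM or more it was -0.19 and -0.08. This split by mean level does not fully match abundance. The median level was 23.2 CPM for receptor genes and 48.1 CPM for all genes at 10 CPM or more, and 1.69 and 3.12 CPM below. Of these genes, S1pr2, Lpar1 and Lpar5 stood at 10 CPM or more in both libraries. S1pr1, Lpar6, Adgrb2, Adgrl2, Adgrg1 and Gpr161 reached a mean of 10 CPM only through the library where they were high. The exact 95% interval of the ratio, given below in parentheses and covering counting error only, lay wholly beyond 2-fold for 10 higher genes (background 9.15%) and 7 lower genes (background 6.34%).

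**Figure D1:**
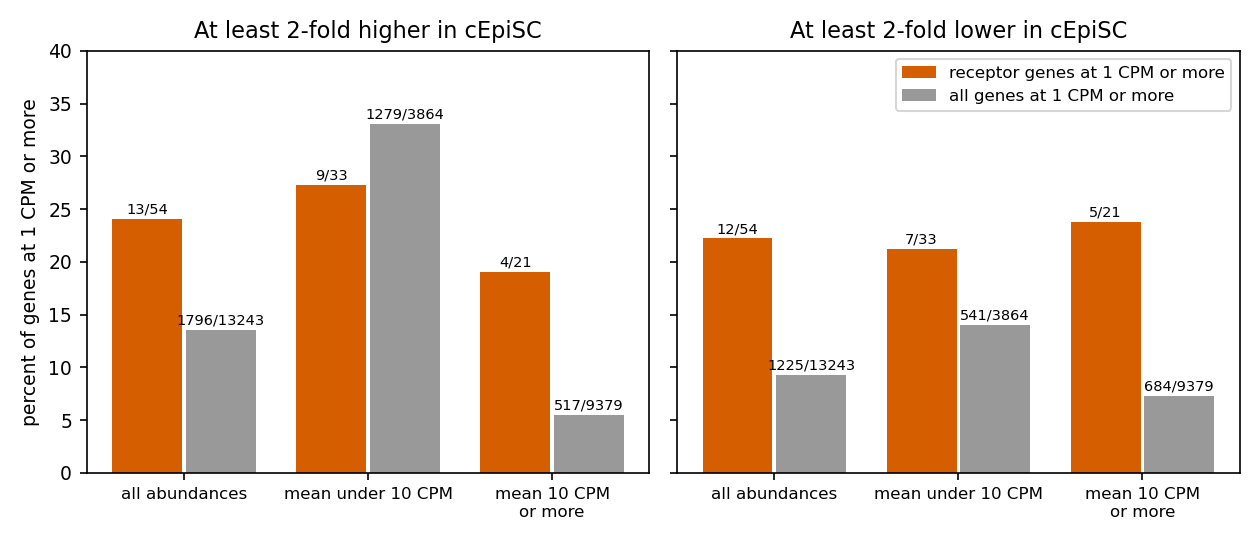
Percent of genes at 1 CPM or more that were at least 2-fold higher (left) or lower (right) in cEpiSC than in mESC, for receptor genes (orange) and all genes (grey), over all abundances and by mean abundance; the counts stand above the bars. Receptor genes with a mean under 10 CPM were higher in 9 of 33 cases, a smaller share than the 33.1% of all genes in that range. At 10 CPM or more they were higher in 4 of 21 cases, a larger share than 5.51%. Adgrb2, Adgrl2 and Lpar6 (higher) and Adgrg1, Gpr161 and S1pr1 (lower) reached that mean only through the library where they were high. Within each range the median level of receptor genes was lower than that of all genes.

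**Figure D2:**
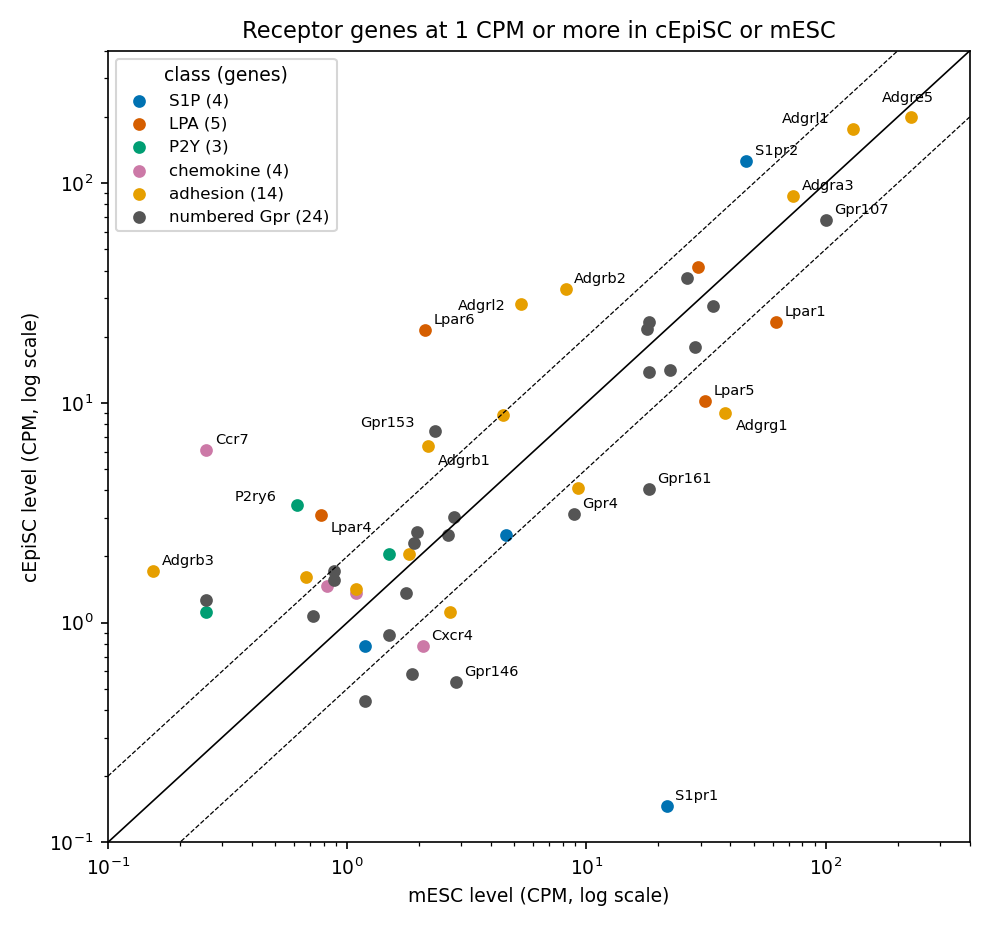
Level of the 54 receptor genes at 1 CPM or more, with cEpiSC on the vertical and mESC on the horizontal axis (CPM, both log scales), coloured by class. The solid line marks equal levels and the dashed lines 2-fold; S1pr1 stands alone at 0.147 CPM in cEpiSC and 21.7 CPM in mESC.

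S1P receptors had the sharpest contrast: S1pr1 stood at the floor of 3 counts in cEpiSC and S1pr2 took almost the whole family total. S1pr1 (Entrez 13609, chromosome 3, 115710433 to 115715055, GRCm38.p6), which couples to inhibitory G proteins and is known from blood vessels and lymphocytes, had 3 counts in cEpiSC and 420 in mESC. Its log2 ratio was -6.46 (-9.49 to -5.65). Of the endothelial markers, Vwf was lower (194 and 879 counts), Tek lay within 2-fold (421 and 355) and Cdh5 had 1 and 2 counts, and their part in this value was not tested. S1pr2 (Entrez 14739, chromosome 9, 20965952 to 20976793), known for coupling to G proteins that activate RhoA, had 2574 counts (126 CPM) in cEpiSC and 903 (46.7 CPM) in mESC, a log2 ratio of 1.43 (1.32 to 1.54). In TPM, a level per kilobase of transcript that allows genes to be compared, S1pr2 stood at 80.0 in cEpiSC and 30.7 in mESC. It made up 97.7% of the summed TPM of the 5 S1P receptors in cEpiSC and 65.6% in mESC, while S1pr1 made up 0.110% and 28.3%. The family sum was 81.9 TPM in cEpiSC and 46.8 TPM in mESC, so the total was larger in cEpiSC although S1pr1 was lower.

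The other S1P receptors were rare. S1pr3, which couples to several G protein classes, had 51 counts in cEpiSC and 89 in mESC, a log2 ratio of -0.86 (-1.41 to -0.37). S1pr4, known from blood cells, had 16 and 23 counts, too few to detect a difference (-0.55, -1.62 to 0.38). S1pr5 stayed below 1 CPM, with 6 counts in cEpiSC and 1 in mESC.

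LPA receptors split in both directions. In summed TPM the Edg-type and P2Y-like families were nearly even in cEpiSC, where the Edg-type sum was lower than in mESC and the P2Y-like sum hardly differed. Lpar6 (Entrez 67168, chromosome 14, 73237891 to 73240358), a P2Y-like receptor known in humans from inherited hair loss, had 437 counts (21.4 CPM) in cEpiSC and 41 (2.12 CPM) in mESC. Its log2 ratio of 3.27 (2.87 to 3.83) was the second highest of the 54 genes. Lpar4, also P2Y-like, had 63 and 15 counts, a log2 ratio of 1.86 (1.16 to 2.91). Lpar1 (Entrez 14745, chromosome 4, 58435252 to 58554027), a widely expressed Edg-type receptor, was lower with 476 counts (23.3 CPM) in cEpiSC and 1202 (62.1 CPM) in mESC, a log2 ratio of -1.41 (-1.57 to -1.26). Lpar5 (Entrez 381810, chromosome 6, 125067844 to 125086129), the remaining P2Y-like receptor, had 208 counts (10.2 CPM) in cEpiSC and 606 (31.3 CPM) in mESC, a log2 ratio of -1.61 (-1.86 to -1.39). Lpar2, Edg-type, lay within 2-fold at 41.5 CPM in cEpiSC and 29.1 CPM in mESC (0.51, 0.36 to 0.67). Lpar3 had 0 counts in both libraries, which allows up to 0.147 CPM in cEpiSC and 0.155 CPM in mESC (a floor of 3 counts).

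The order of levels in TPM differed between the states. In cEpiSC Lpar6 led with 15.6 TPM, followed closely by Lpar2 (12.9 TPM) and Lpar1 (12.3 TPM), then Lpar5 (6.47 TPM) and Lpar4 (1.29 TPM). In mESC Lpar1 led with 33.9 TPM, followed by Lpar5 (19.8 TPM), Lpar2 (9.32 TPM), Lpar6 (1.60 TPM) and Lpar4 (0.34 TPM). The Edg-type receptors summed to 25.1 TPM in cEpiSC and 43.2 TPM in mESC, and the P2Y-like receptors to 23.4 TPM and 21.7 TPM. Lpar6 lies inside the span of Rb1, on the opposite strand, in the GENCODE vM21 annotation, and 7.56% of its exonic bases overlap Rb1 exons. Rb1 was itself higher, with 1534 counts in cEpiSC and 619 in mESC (1.23, 1.09 to 1.37). The library chemistry keeps strand, but whether the counting used it is not given, and the part of Rb1 reads in the Lpar6 value was not tested.

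**Figure D3:**
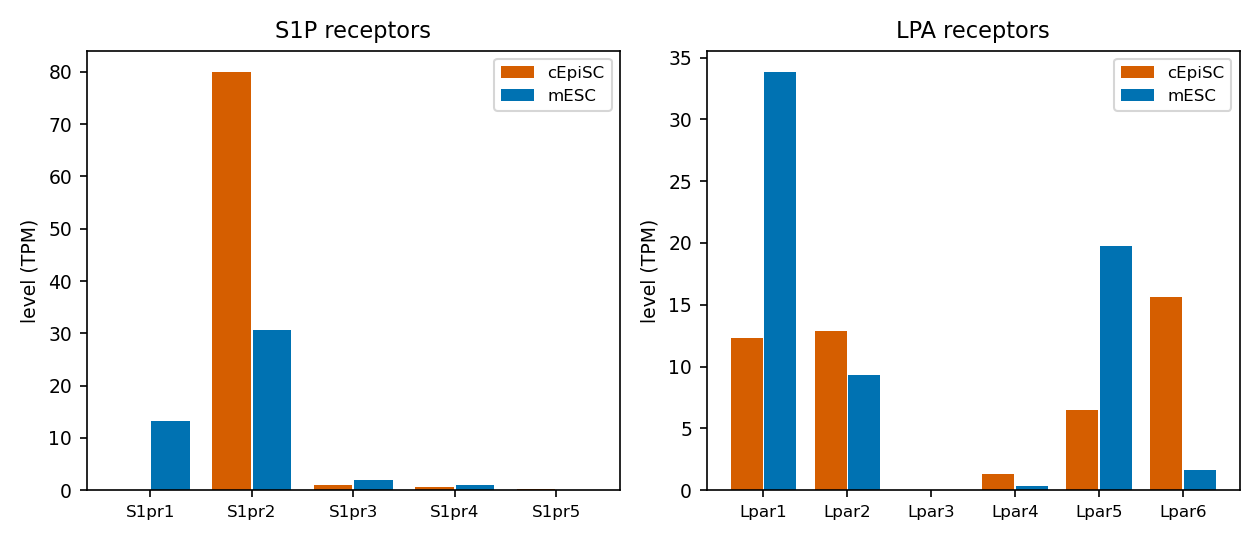
Level in TPM of each S1P receptor gene (left) and LPA receptor gene (right), with cEpiSC in orange left of mESC in blue; each bar is 1 library. S1pr2 reached 80.0 TPM in cEpiSC against 30.7 TPM in mESC, and Lpar6 stood at 15.6 TPM against 1.60 TPM while Lpar1 stood at 12.3 TPM against 33.9 TPM.

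Genes that make, carry and break down these lipids also differed in both directions. Of 18 such genes listed, 16 reached 1 CPM: 3 were higher, 2 lower and 11 within 2-fold. Their median log2 ratio was -0.17, beside -0.02 for all genes. For this and the later lists of related genes, the background was 13.6% higher and 9.25% lower. Among all genes with a mean under 10 CPM it was 33.1% and 14%. The higher ones were Spns2, an S1P exporter (121 counts in cEpiSC and 23 in mESC, log2 ratio 2.22), Enpp2, which encodes the LPA-producing enzyme autotaxin (30 and 1, 3.36), and the neutral ceramidase gene Asah2 (51 and 9, 2.20). The lower ones were Sphk2, a kinase that makes S1P (432 and 1066, -1.38, with reads shared with similar loci), and Plpp3, a phosphatase that breaks down both lipids (728 and 1625, -1.24).

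P2Y receptors, which sense extracellular nucleotides, were scarce, and 3 of 7 reached 1 CPM. P2ry6, a receptor for UDP, had 70 counts in cEpiSC and 12 in mESC, a log2 ratio of 2.29 (1.57 to 3.48). P2ry1, a receptor for ADP, had 23 and 5 counts (1.77, 0.69 to 3.87), with 23.1% of its exonic bases overlapped by an antisense gene in GENCODE. P2ry2, which responds to ATP and UTP and lies 21.1 kb from P2ry6 on chromosome 7, had 42 and 29 counts, and a difference was not detectable (0.43, -0.26 to 1.19). The family summed to 5.31 TPM in cEpiSC and 1.71 TPM in mESC. P2ry14, P2ry10 and P2ry4 had 5, 1 and 1 counts in cEpiSC and 0 in mESC, and P2ry10b had 0 in both.

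Of 14 genes found that release or break down extracellular nucleotides, 11 reached 1 CPM, with 3 higher, 1 lower and 7 within 2-fold, and a median of 0.44. Enpp3, an ectoenzyme that cleaves nucleotides, had 2470 counts in cEpiSC and 261 in mESC (3.15, 2.98 to 3.35). At 77.0 TPM in cEpiSC and 8.88 TPM in mESC it exceeded P2ry6, the most abundant P2Y gene in cEpiSC, at 3.22 and 0.63 TPM. Enpp1 (63 and 11 counts, 2.25) and the channel gene Panx2 (23 and 3, 2.26) were higher at low levels, and the vesicular nucleotide transporter gene Slc17a9 was lower (264 and 562, -1.16).

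Chemokine receptors were weakly expressed, and 4 of 11 reached 1 CPM in at least 1 library. Ccr7 (Entrez 12775, chromosome 11, 99144199 to 99155077), which guides lymphocytes and dendritic cells to lymph nodes, had 125 counts (6.11 CPM) in cEpiSC and 5 (0.258 CPM) in mESC. Its log2 ratio of 4.11 (3.30 to 6.21) was the highest of the 54 genes. Of the blood and immune markers, Itgam was higher as well (219 and 10 counts), Cd68 had 199 counts in cEpiSC and 306 in mESC (-0.70), and Ptprc and Csf1r had 0 in both libraries. The part of such cells in this value was not tested. Cxcr4, the receptor for Cxcl12, was lower with 16 counts in cEpiSC and 40 in mESC (fold 2.64, log2 interval -2.34 to -0.53), an interval that reaches inside 2-fold. Ccr7 held 66.3% of the family's summed TPM in cEpiSC and 6.91% in mESC, whereas Cxcr4 held 9.27% and 59.4%. Ccr4 (30 and 16 counts) and Cxcr2 (28 and 21 counts, with shared reads) lay within 2-fold, with intervals that include no difference. The other 7 of 11 had at most 2 counts in either library.

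Ligands and decoy receptors of this family differed in both directions. Cxcl12 had 221 counts in cEpiSC and 0 in mESC, 69.7-fold higher with mESC set to the 3-count floor (log2 interval from 5.81 upward). Its receptor gene Cxcr4 was lower. Ackr3, a scavenging receptor for Cxcl12, was lower as well, with 5 counts in cEpiSC and 101 in mESC (-3.95, -6.07 to -3.15). Ackr4, which scavenges the ligands of Ccr7, was higher with 104 and 41 counts (1.22, 0.73 to 1.82). Of 7 atypical and related receptor genes found, 3 reached 1 CPM, with 1 higher, 1 lower and 1 within 2-fold, and a median of -0.75. Of 22 chemokine ligand genes found, 8 reached 1 CPM, with 3 higher, 1 lower and 4 within 2-fold, and a median of 0.71. Their median level was 1.81 CPM, in the range under 10 CPM where 33.1% of all genes were higher. Cxcl10 had 33 counts in cEpiSC and 0 in mESC, 10.4-fold higher with mESC set to 3 counts (log2 interval from 3.00 upward). Cxcl16 had 53 and 8 (2.39, with shared reads), and Cxcl14 was lower with 12 and 35 (-1.47).

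Adhesion GPCRs were the most abundant class, and their total hardly differed, at 230 TPM in cEpiSC and 235 TPM in mESC. Of 26 genes, 14 reached 1 CPM, of which 5 were higher (35.7%, background 13.6%), 3 lower (21.4%, background 9.25%) and 6 within 2-fold. The median level of the 14 was 6.67 CPM, and under a mean of 10 CPM the background was 33.1% higher and 14% lower. The class was dominated by Adgre5 (Entrez 26364, chromosome 8, 83723245 to 83741311), which encodes CD97, a receptor for the complement regulator CD55. It was the most abundant of all 120 genes in both libraries, at 119 TPM in cEpiSC and 139 TPM in mESC (200 and 228 CPM, log2 ratio -0.19, -0.25 to -0.13). In GENCODE 23.8% of its exonic bases overlap the gene Ddx39 on the opposite strand, which had 4735 and 4095 counts. Its neighbour Adgrl1, 159 kb away on chromosome 8, stood at 41.9 TPM in cEpiSC and 32.1 TPM in mESC (0.44, 0.36 to 0.51). Adgra3, which encodes GPR125, stood at 34.6 and 30.0 TPM (0.25, 0.15 to 0.35).

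All 3 brain-specific angiogenesis inhibitor genes, Adgrb1 to Adgrb3, were higher in cEpiSC. Adgrb2 (Entrez 230775, chromosome 4, 129984773 to 130022633), mostly known from neurons, had 674 counts (32.9 CPM) in cEpiSC and 159 (8.22 CPM) in mESC, a log2 ratio of 1.99 (1.75 to 2.26). Adgrb1, known for its part in the engulfment of dying cells through Elmo, Dock180 and Rac, had 130 and 42 counts (1.51, 1.04 to 2.09). Adgrb3, a neuronal receptor for C1q-like proteins, had 35 and 3 counts (2.83, 1.80 to 5.81). The subfamily summed to 14.3 TPM in cEpiSC and 3.74 TPM in mESC, so Adgrb2 accounts for most of it. The neural markers were higher too, with Pax6 at 33 counts in cEpiSC and 2 in mESC (3.07) and Sox1, within 2-fold, at 120 and 67 (0.74), and their part in these values was not tested.

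Among latrophilins, receptors that bind teneurins and FLRT proteins on neighbouring cells, Adgrl2 differed most. Adgrl2 (Entrez 99633, chromosome 3, 148815586 to 148989096) had 579 counts (28.3 CPM) in cEpiSC and 103 (5.32 CPM) in mESC, a log2 ratio of 2.39 (2.11 to 2.73). Adgrl3 stayed below 1 CPM (16 and 5 counts) and Adgrl4 had 0 counts in both. Several known partners were lower instead: Flrt1 (10 counts in cEpiSC and 96 in mESC, -3.10), Flrt2 (22 and 86, -1.95), Flrt3 (45 and 89, -1.03) and the teneurin gene Tenm4 (174 and 584, -1.82). Tenm3 lay within 2-fold (610 and 492).

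The Adgrg genes of chromosome 8 lie side by side and differed in opposite directions. Adgrg1 (Entrez 14766, chromosome 8, 94974756 to 95014208), which encodes GPR56, a receptor of cortical development, had 184 counts (4.60 TPM) in cEpiSC and 736 (19.8 TPM) in mESC, a log2 ratio of -2.07 (-2.32 to -1.85). Adgrg5, 31.5 kb from it, had 33 and 13 counts (1.15, 0.30 to 2.31). Adgrg3, 2.905 kb away on the other side, had 2 and 16 counts and stayed below 1 CPM. Tgm2, which encodes a transglutaminase that binds GPR56, was lower too, with 103 and 538 counts (-2.44, -2.78 to -2.16). The remaining lower adhesion genes were Adgrd1 (84 and 179 counts, -1.15, -1.56 to -0.79) and Adgrg6, a receptor needed for myelination by Schwann cells (23 and 52 counts, -1.19, -2.03 to -0.52). Adgrv1, an unusually large receptor of hair cells, came close to 2-fold with 181 and 87 counts (0.96, 0.60 to 1.36). Adgra2 (42 and 35 counts) and Adgrf3 (29 and 21) lay within 2-fold, with intervals that include no difference.

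Of the 29 ligand genes of adhesion receptors found, 17 reached 1 CPM, with 5 higher, 5 lower and 7 within 2-fold, and a median of 0.23. The higher ones were the collagen genes Col4a1 (1251 counts in cEpiSC and 181 in mESC, 2.70) and Col4a2 (508 and 101, 2.23), the surface glycoprotein gene Thy1 (94 and 21, 1.98), C1ql1 (62 and 23, 1.28) and the syndecan gene Sdc1 (1798 and 761, 1.16). Cd55, the ligand gene of CD97, lay within 2-fold at 48.9 CPM in cEpiSC and 36.4 CPM in mESC, with shared reads.

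**Figure D4:**
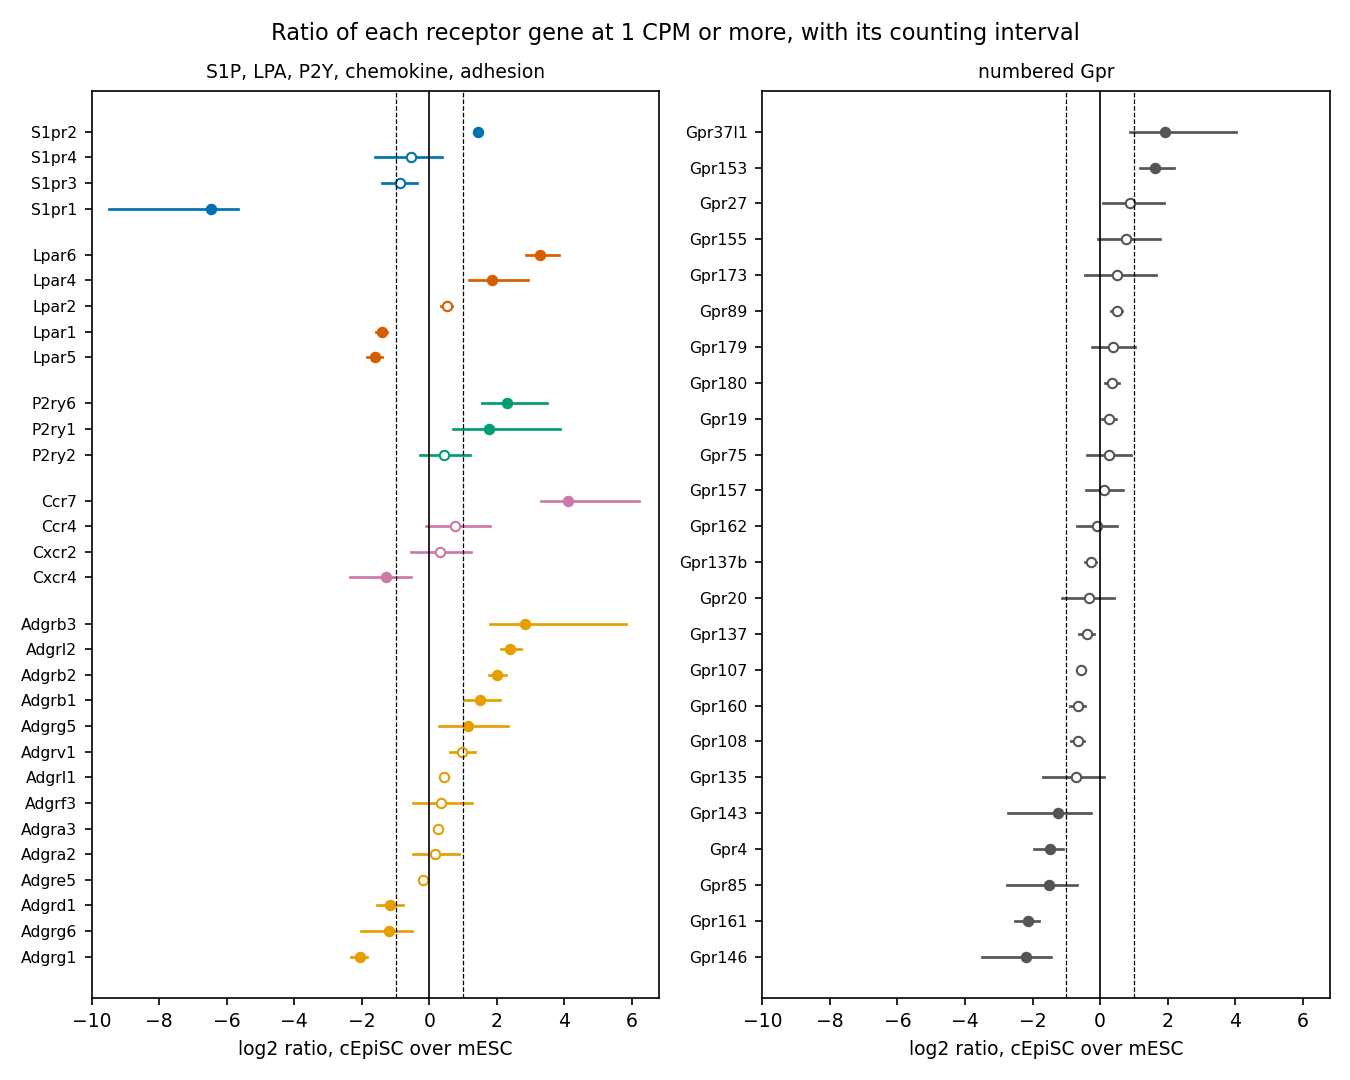
Log2 ratio of cEpiSC over mESC for the 54 receptor genes at 1 CPM or more, by class, with the exact 95% counting interval as a line. Filled points are at least 2-fold apart and dashed lines mark 2-fold; Ccr7 (4.11) and S1pr1 (-6.46) are the extremes, and most numbered Gpr genes lie within 2-fold.

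Of the 65 numbered Gpr genes, many of them orphan receptors, 24 reached 1 CPM and 16 had 0 counts in both libraries. Of the 24, 2 were higher (8.33%, background 13.6%), 5 lower (20.8%, background 9.25%) and 17 within 2-fold (70.8%, beside 77.2% of all genes). The median level of the 24 was 2.74 CPM, and under a mean of 10 CPM the background was 33.1% higher and 14% lower. Gpr161 (Entrez 240888, chromosome 1, 165281184 to 165326747), a receptor of the primary cilium that restrains Hedgehog signalling through cAMP, was lower. It had 83 counts (4.06 CPM) in cEpiSC and 353 (18.2 CPM) in mESC, a log2 ratio of -2.14 (-2.53 to -1.82). Gpr146, known from cholesterol metabolism, had 11 and 55 counts (-2.21, -3.49 to -1.45). Gpr4, which senses protons, had 64 and 172 counts (-1.48, -1.94 to -1.09).

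Gpr85, an orphan receptor of neurons, had 12 and 36 counts (-1.51, -2.74 to -0.69), and Gpr143, a receptor of pigment cells, had 9 and 23 (-1.25, -2.73 to -0.27). The higher genes were Gpr153, an orphan receptor (152 and 45 counts, 1.63, 1.19 to 2.19), and Gpr37l1, a receptor of glia (26 and 5 counts, 1.93, 0.89 to 4.04). Gpr19 and Gpr160, the most abundant numbered genes outside the internal-membrane group, lay within 2-fold at 22.5 TPM in cEpiSC against 19.8 TPM in mESC, and at 12.8 TPM against 21.5 TPM.

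The 8 genes for proteins of internal membranes held most of the numbered Gpr transcripts, with 138 of 198 TPM in cEpiSC and 159 of 230 TPM in mESC. Of these, 7 reached 1 CPM and all 7 lay within 2-fold, as did 77.2% of all genes and 87.2% of those with a mean of 10 CPM or more. Gpr137c stayed below 1 CPM, with 19 counts in cEpiSC and 2 in mESC (2.34, 1.12 to 6.31). Gpr107, a Golgi protein, stood at 68.1 CPM in cEpiSC and 100.0 CPM in mESC (-0.55, -0.66 to -0.45), and Gpr108, its close relative, at 18.0 and 28.4 CPM (-0.66, -0.85 to -0.47). Gpr89, which encodes the Golgi pH regulator, stood at 37.1 and 26.3 CPM (0.50, 0.33 to 0.66), with shared reads and 24.8% of its exonic bases overlapping Pdzk1 on the opposite strand. Gpr180 stood at 23.4 and 18.3 CPM (0.35, 0.15 to 0.55). The other 3 at 1 CPM or more were Gpr137b (-0.28), Gpr137 (-0.40, with shared reads) and Gpr155 (0.77). The interval of Gpr155 (-0.06 to 1.77) reaches beyond 2-fold. The 17 numbered genes outside this group that reached 1 CPM hold all 7 differences of 2-fold or more in the class. The group was listed by hand with earlier results known, so this split depends on which genes were listed.

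The 120 genes summed to 572 TPM in cEpiSC and 582 TPM in mESC, and took 0.11% and 0.101% of the counts. The 10 most abundant held 73.8% of the summed TPM in cEpiSC and 70.4% in mESC, and 7 genes were among the 10 in both. S1pr2 was the second most abundant in cEpiSC and the fifth in mESC, where Gpr107 was second. A level of 10 TPM or more was reached by 16 genes in each library.

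Below 1 CPM lay 66 genes, of which 39 had counts in at least 1 library. In 17 of the 120 genes counts appeared in cEpiSC and not in mESC, and in 2 (Gpr50 and Gpr158) the reverse. Over all 18032 listed genes the same counts were 1188 and 480. The highest counts among the 66 in a single library were those of Adgrf5 (20 in cEpiSC and 11 in mESC), Gpr1 (19 and 0) and Gpr137c (19 and 2). Of the 39, 22 had at most 5 counts in both.

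A 300-base promoter window was listed for 88 of the 120 genes. In these windows, genes at least 2-fold apart did not show a CpG content that followed the direction of the difference. For some, Adgrl2, Gpr161 and Adgrg1 among them, the full RefSeq span begins upstream of the window. Whether the windows hold the starts used in these cells was not tested. The median was 11.5 CpG for 10 higher genes, 9 for 9 lower genes and 18 for 22 genes within 2-fold. It was 7 for 47 receptor genes below 1 CPM. Over all genes at 1 CPM or more the median was 21, with 16 for those higher and 17 for those lower. Among the windows shown above, S1pr2 (18 CpG) and Lpar6 (1 CpG) were both higher, and Lpar1 (14 CpG) and Lpar5 (7 CpG) both lower. The core motif CTTTGA bound by TCF/LEF factors, which act in Wnt signalling, was searched on both strands. It was present in 6 of 41 receptor genes at 1 CPM or more (14.6%), in 11.8% of the 10578 windows of all genes at 1 CPM or more, and in 16.2% of all 27025 windows. Lpar5 held 2 matches.

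**Figure D5:**
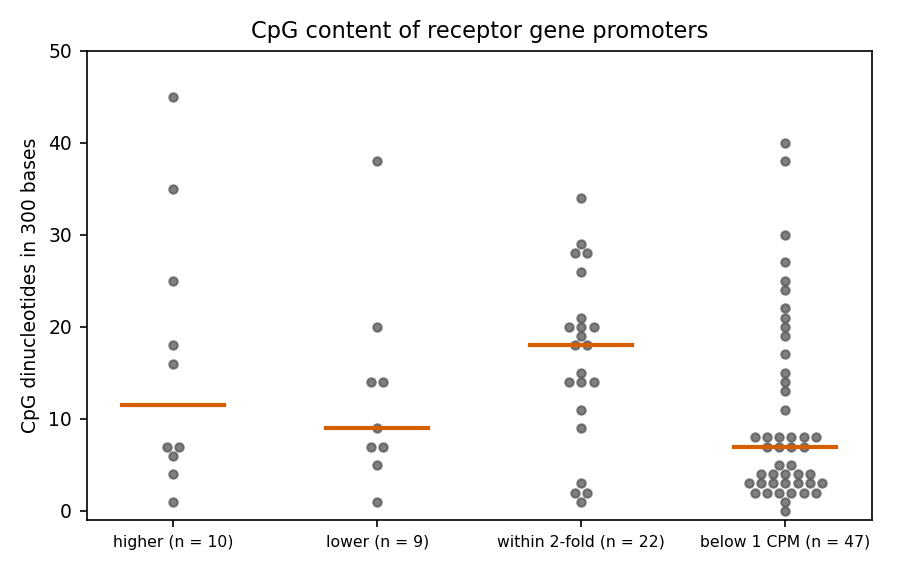
Number of CpG dinucleotides in the 300-base promoter window of each receptor gene with a RefSeq window, grouped by its call in cEpiSC over mESC; each point is a gene and the bar is the median. Medians were 11.5 in higher genes, 9 in lower genes, 18 within 2-fold and 7 below 1 CPM, with wide overlap. Some windows lie inside the full RefSeq span of the gene.

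Genes downstream of the receptors differed in part. Of 15 G protein alpha subunit genes found, 14 reached 1 CPM, with 5 higher, 2 lower and 7 within 2-fold, and a median of 0.14. Gnas, which encodes the subunit that stimulates cAMP synthesis, was higher and abundant, at 284 CPM in cEpiSC and 109 CPM in mESC (log2 ratio 1.37). Gna13, which encodes a subunit that activates RhoA downstream of S1P and LPA receptors, was lower, at 61.2 and 172 CPM (-1.49, -1.58 to -1.40). In TPM it stood at 28.1 in cEpiSC and 59.6 in mESC, a smaller difference that the counting interval does not cover. Gnat2 (114 and 4 counts, 4.21), Gna14 (31 and 2, 2.99) and Gnao1 (68 and 12, 2.25) were higher at low levels. Of 16 beta and gamma subunit genes, 11 reached 1 CPM, with 3 higher (Gngt2, 2.19, with shared reads; Gnb4, 1.44; Gng2, 1.17), none lower and a median of 0.22.

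Of 18 genes for RGS proteins, which speed the shutdown of G proteins, 10 reached 1 CPM, with 6 higher, 1 lower and 3 within 2-fold, and a median of 1.04. Their median level was 3.00 CPM, in the range under 10 CPM where 33.1% of all genes were higher. Rgs20 had 57 counts in cEpiSC and 0 in mESC, 18.0-fold higher with mESC set to 3 counts (log2 interval from 3.82 upward). Rgs14 (73 and 19 counts, 1.76) and Rgs16 (21 and 5, 1.65) were also higher, and Rgs11 was lower (45 and 119, -1.44). All 12 receptor kinase and arrestin genes lay within 2-fold, at a median of 0.42, the most abundant being Arrdc4 (135 TPM in cEpiSC and 71.0 TPM in mESC) and Grk6 (80.3 and 58.5 TPM). Of 19 effector genes for cAMP, phospholipase C and RhoA, 14 reached 1 CPM and 13 lay within 2-fold, at a median of -0.33. The exception was the adenylyl cyclase gene Adcy7, with 152 counts in cEpiSC and 8 in mESC (3.87, 3.15 to 5.40).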

How the data were processed

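Per the labels' protocols, poly(A) RNA was captured on oligo(dT) beads and sequenced on a BGI instrument with 1 library per state. HISAT2, Bowtie2, RSEM 1.3.1, DESeq2 1.34.0 and the build GRCm38.p6 appear in the submitters' processing notes. Their roles and the annotation were not given in the sources used here. Estimated counts, not scaled, were deposited by the authors. The authors also deposited TPM and FPKM values, both per kilobase. No column of another sample was present (0).

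Counts were rounded and scaled by TMM in edgeR 4.0.16 (R 4.3.3, factors 1.03 for cEpiSC and 0.975 for mESC). The log2 ratio used a prior count of 2. Intervals are exact conditional 95% intervals without the prior, and they and floors cover counting error only, since PCR copies were not told apart by molecular identifiers. Their median half-width was 0.88 for 33 receptor genes under a mean of 10 CPM and 0.20 for 21 above. A gene with 1 CPM in at least 1 library was called at 2-fold by size alone. Nothing was tested against replicates. The scripts were checked on simulated data. Named genes are receptor genes at least 2-fold apart and the 2 most abundant per class, and in each list up to 4 genes at least 2-fold apart, or else the 2 most abundant. Other genes were named after their values were seen. Members, lists and the split of internal-membrane proteins were chosen with earlier results of these data known. Coordinates and promoters are RefSeq's (GRCm38.p6; 120 and 88 genes matched). Exon overlaps are from GENCODE vM21 (119 matched), on the same build. Counts that are not whole within 0.005, found for 5 receptor genes, mark reads shared with similar loci. Alternatives were size factors from DESeq2 1.42.0, library totals, other prior counts and filters, TPM and FPKM.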

Additional observations from a re-analysis of the deposited data

How the results depend on the processing

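With size factors from DESeq2, library totals alone, or prior counts of 0.5 or 5, all 25 receptor genes at least 2-fold apart stayed so, and library totals added Adgrv1. With a pseudocount of 1, TPM left 7 higher and 6 lower genes (13 in all, beside 8.23% and 7.17% of all genes) and FPKM 6 and 6 (12 in all, beside 7.14% and 5.13%). This pseudocount shrinks low genes by construction, and 12 of the 25 genes kept 2-fold under all these settings. A filter of 5 CPM left 27 genes, with 7 higher and 7 lower (14 in all, beside 8.78% and 8.37%). Without a filter 25 of 120 genes were higher, 17 lower and 42 apart in all, beside 15.0% and 9.23% of all genes. A filter on the mean of both libraries, chosen after seeing the data, gave 10 higher and 11 lower of 48 (beside 11.8% and 8.86%). The median log2 ratio ranged from 0 without a filter to 0.34 with library totals. Under the mean filter the list of other lipid receptors kept 1 gene, at -0.49. On TPM the higher RGS genes numbered 3, the higher alpha subunit genes 2 and the lower adhesion ligand genes 2. No paired analysis was possible because each state has 1 library, so leaving out a replicate was not possible either. Depth limits receptor genes under 10 CPM.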

Other observations

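Receptors outside the set that share its ligand classes or naming showed further differences. Of 21 other lipid and metabolite receptor genes found, 6 reached 1 CPM, with 4 higher, 1 lower and 1 within 2-fold, and a median log2 ratio of 1.13. Their median level was 0.917 CPM, in the range under 10 CPM where 33.1% of all genes were higher. The higher genes of this list numbered 2 with a prior count of 5 and 0 on TPM with 1 added, where the median was 0.45. All were rare: the leukotriene receptor genes Ltb4r2 and Ltb4r1 had 28 and 24 counts in cEpiSC and 7 and 6 in mESC, and the prostaglandin receptor gene Ptger4 had 28 and 11. Ffar3, a receptor for short-chain fatty acids, had 1 count in cEpiSC and 37 in mESC (-3.75, -10.63 to -2.72). Ffar2, a related receptor that stayed below 1 CPM, had 0 and 19 counts.

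Of 12 Celsr, Gprc, Lgr and Smo genes, 9 reached 1 CPM, with 3 higher, 2 lower and 4 within 2-fold, and a median of 0.67. Lgr4, a receptor for R-spondins in Wnt signalling, stood at 168 CPM in cEpiSC and 54.1 CPM in mESC (1.63, 1.53 to 1.73). Smo, the Hedgehog signal transducer, stood at 127 and 62.6 CPM (1.02, 0.92 to 1.12), a direction opposite to that of Gpr161. Celsr1, an adhesion GPCR of planar cell polarity named outside the Adgr scheme, was lower at 24.9 and 56.5 CPM (-1.18, -1.33 to -1.03), and Celsr3 was lower at 3.08 and 6.87 CPM. Gprc5b, with shared reads, was higher at 28.5 and 11.9 CPM.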
